A study of Mus musculus with 12 samples.

Results

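The EGF receptor (ErbB) family and its ligands were followed in mouse intestinal crypts and colon tumors with and without the enhancer ieCtnnb1. The genes were taken by name. They are the 9 genes Egf, Tgfa, Areg, Ereg, Btc, Hbegf, Egfr, Erbb2 and Erbb3, out of 54532 genes in each expression table, and comprise 6 ligands and 3 receptors. RNA-seq was available for 12 libraries of untreated adult mice in 4 groups of 3. Small intestinal crypts came from Wild type mice and from ieCtnnb1KO mice, which lack an upstream enhancer of Ctnnb1, the gene for β-catenin. Colon tumors came from APCmin/+ mice and from APCmin/+;ieCtnnb1KO mice, so both tumor groups carry the Min nonsense mutation in 1 copy of Apc, the gene whose protein keeps β-catenin low. The deletion is in the germline and therefore in every cell of the animal, not in the epithelium alone. The comparison asks how the repertoire of ErbB ligands and receptors stands in each tissue and whether it differs when the enhancer is missing.

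ErbB receptors are tyrosine kinases of the cell surface. EGFR is the receptor for the ligands considered here, ERBB2 binds no known ligand and acts as the preferred partner of the others, and ERBB3 binds neuregulins and signals mainly through its partners because its own kinase is weak. The ligands are made as membrane proteins and cut free at the surface, and the signal runs through the RAS-MAPK and PI3K-AKT cascades. In the intestine, EGF family ligands are made by Paneth cells, other epithelial cells and the stroma, and EGF is a standard component of the medium in which crypt stem cells are grown.

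The values are FPKM, fragment counts divided by gene length and by a scaling factor for each library. Levels can thus be compared between genes of unequal length. FPKM times gene length gave whole multiples of 1 step in each library (100% of values within 0.01 fragment), and this step was taken as 1 fragment. On this count, Wild type crypt libraries held 14457896 to 16074777 fragments on genes (median 16042558) and ieCtnnb1KO crypt libraries 14685020 to 15819430 (median 15717741). APCmin/+ tumor libraries held 14648696 to 16156712 (median 15895487) and APCmin/+;ieCtnnb1KO tumor libraries 16041000 to 16143130 (median 16064312). The scaling factor did not always follow these counts. For a gene of 1 kb, an FPKM of 1 stood for 15.5 fragments in Wild type crypt library 1 and 15.3 in library 2. These libraries held 14457896 and 16042558 fragments. The crypt and tumor tables were normalized separately. Levels were therefore tested only within a table, across tables only the knockout effects were compared, and crypt and tumor levels are set side by side without a test, since tissue, gut region and Apc genotype cannot be told apart.

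Ctnnb1, the target of the deleted enhancer, was lower in every knockout library than in every control library of its tissue. In crypts it stood at 121, 134 and 123 FPKM in Wild type and at 102, 104 and 105 FPKM in ieCtnnb1KO. The log2 fold change was −0.28 (SE 0.118, limma adjusted p = 0.849), and −0.13 after rescaling to the same total FPKM. In tumors it stood at 299, 363 and 358 FPKM in APCmin/+ and at 279, 248 and 250.2 FPKM in APCmin/+;ieCtnnb1KO, a log2 fold change of −0.39 (SE 0.128, limma adjusted p = 0.303). The direction follows the labels in both tissues, while neither difference passed the adjusted threshold of 0.05. Xist, the RNA that coats the inactive X chromosome of females, and Y-linked genes showed that 10 libraries came from males. The 2 tumor libraries numbered 3 came from females, with Xist at 114 FPKM in APCmin/+ and 61.4 FPKM in APCmin/+;ieCtnnb1KO.

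Marker genes described what the libraries held. In crypts the 8 epithelial markers summed to between 4312 and 5660 FPKM, with Krt8 the most abundant, whereas all 5 smooth muscle markers, 4 of 5 endothelial markers and 4 of 7 fibroblast markers had a mean under 0.5 FPKM. Tumor libraries held epithelium and stroma together. Their epithelial markers summed to between 3885 and 5403 FPKM, their fibroblast markers to between 355 and 607 FPKM and their leukocyte markers to between 123 and 438 FPKM. Of the 8 enterocyte markers of the small intestine, 6 had a mean under 0.5 FPKM in tumors (Alpi, Fabp1, Apoa1, Apoa4, Sis and Lct). In such bulk libraries, fewer cells of a type and less RNA per cell cannot be told apart.

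Positions are given on GRCm38 (mm10), as in the expression tables. Of the ligand genes, 3 lie on 1 stretch of chromosome 5 with Epgn, the gene for epigen, another EGFR ligand. Epgn is followed after 39.4 kb by Ereg (chr5:91074622-91093646, plus strand), after another 46.0 kb by Areg (chr5:91139599-91148432, plus strand) and after 209 kb by Btc (chr5:91357261-91402994, minus strand). The first 3 are direct neighbours, and 2 noncoding genes lie between Areg and Btc. Egf is at chr3:129677565-129755316 (minus strand) and Tgfa at chr6:86195223-86275719 (plus strand). Of the receptor genes, Egfr (chr11:16752203-16918158, plus strand) and Erbb2 (chr11:98412470-98437716, plus strand) share a chromosome without being neighbours, and Erbb3 is at chr10:128567523-128589652 (minus strand).

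The promoters of Areg and Btc are shown because Areg had the highest tumor fold change among the 9 genes and Btc was the gene whose crypt groups did not overlap. The sequences are from RefSeq (GRCm38.p6) and run from 250 bases before to 50 bases after the start, 5′ to 3′ on the strand of the gene. A window was found for 6 of the 9 genes (Egf, Tgfa, Areg, Btc, Egfr and Erbb2). Capitals mark a cAMP response element, TGACGTCA, the sequence that CREB proteins bind. The Areg window is chr5:91139349-91139648 (plus strand) and the Btc window is chr5:91402945-91403244 (minus strand).
Areg: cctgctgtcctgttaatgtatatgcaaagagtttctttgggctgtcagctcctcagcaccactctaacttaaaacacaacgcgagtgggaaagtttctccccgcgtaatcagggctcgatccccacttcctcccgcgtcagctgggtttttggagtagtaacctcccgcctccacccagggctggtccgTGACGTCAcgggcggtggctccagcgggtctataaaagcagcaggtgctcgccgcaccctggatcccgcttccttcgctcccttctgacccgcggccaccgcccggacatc
Btc: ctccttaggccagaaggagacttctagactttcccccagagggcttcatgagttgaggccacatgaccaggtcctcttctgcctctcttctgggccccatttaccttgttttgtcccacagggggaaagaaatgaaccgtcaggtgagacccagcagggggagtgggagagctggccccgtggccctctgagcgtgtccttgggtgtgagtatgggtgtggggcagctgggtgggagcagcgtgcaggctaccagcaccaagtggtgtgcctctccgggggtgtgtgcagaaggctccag
Both strands were searched for TGACGTCA, for the TCF/LEF motifs CTTTGAT or CTTTGAA, through which β-catenin reaches its target genes, and for the AP-1 motif TGANTCA, which FOS and JUN proteins bind. The only match in the windows of these 6 genes was the element of Areg, which begins at base 190 of the window. Of 32851 promoter windows of the same length, 1.79% held TGACGTCA, 8.65% a TCF/LEF motif and 7.81% an AP-1 motif. A match is a description of the letters, and its absence says only that the letters are not in this window.

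Some of the genes overlap others, and the use of strand in counting is not given in the sources used here, so fragments from overlapping stretches could not be assigned with certainty. Egfr shares 15272 bases with the antisense gene Egfros (mean 0.00268 FPKM in crypts and 0.467 FPKM in tumors). Ereg shares 152 bases with the antisense gene Gm19610 (0.398 FPKM in crypts and 2.32 FPKM in tumors). Erbb2 shares 9 bases with Mien1 (8.60 FPKM in crypts and 20.8 FPKM in tumors) and 91 bases with Gm25048 (0.469 FPKM in crypts and 1.02 FPKM in tumors). Egf, Tgfa and Erbb3 overlap only genes with a mean under 0.2 FPKM in both tissues.

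By group mean, Erbb3 and Erbb2 were the most abundant of the 9 transcripts in all 4 groups, although Areg was above Erbb2 in APCmin/+;ieCtnnb1KO tumor library 2 (32.7 against 28.6 FPKM). In Wild type crypts Erbb3 stood at 35.3, 41.5 and 49.8 FPKM and in ieCtnnb1KO crypts at 39.9, 38.1 and 37.1 FPKM. In tumors it stood at 36.7, 37.7 and 31.7 FPKM in APCmin/+ and at 34.8, 39.0 and 29.1 FPKM in APCmin/+;ieCtnnb1KO. The groups overlapped in both tissues, and the lowest tumor value of each genotype came from the female library. Erbb2 stood at 23.8, 23.3 and 25.7 FPKM in Wild type and at 26.9, 25.1 and 21.5 FPKM in ieCtnnb1KO crypts. In tumors it stood at 30.3, 31.5 and 31.9 FPKM in APCmin/+ and at 31.5, 28.6 and 30.8 FPKM in APCmin/+;ieCtnnb1KO. Its groups overlapped as well, and its spread in tumors was narrow.

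Egfr was the scarcest of the 3 receptor transcripts. Its level was 2.44, 2.34 and 1.98 FPKM in Wild type and 2.38, 2.02 and 1.97 FPKM in ieCtnnb1KO crypts. In tumors the level was 6.21, 4.63 and 4.58 FPKM in APCmin/+ and 5.28, 7.30 and 6.45 FPKM in APCmin/+;ieCtnnb1KO. Egfr thus made up 2.55% to 3.97% of the summed receptor FPKM in the 6 crypt libraries and 6.27% to 9.75% in the 6 tumor libraries. Its fragments numbered 313 to 439 per crypt library and 775 to 1326 per tumor library.

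**Figure D1:**
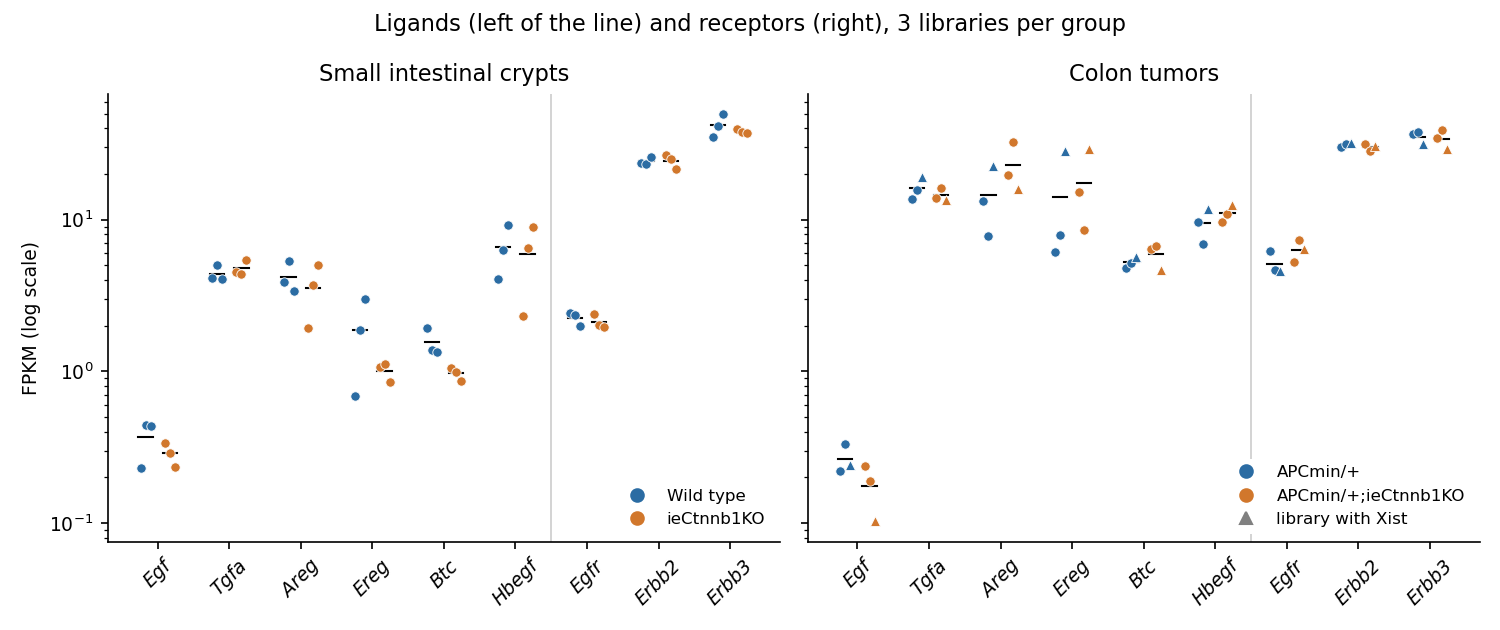
FPKM of the 6 ligands and 3 receptors in each library (vertical axis, log scale), for crypts and tumors. Points are libraries colored by genotype, triangles mark the 2 libraries with Xist, and black bars are means of 3 libraries. Erbb3 and Erbb2 lie above the ligands in crypts, Egf lies under 0.5 FPKM in all 12 libraries, and the 2 triangles of Ereg lie near 29 FPKM, above the other 4 tumor libraries.

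Among the ligands, Egf itself was hardly detected. It was at 0.229, 0.441 and 0.436 FPKM in Wild type and 0.338, 0.291 and 0.234 FPKM in ieCtnnb1KO crypts, and at 0.219, 0.333 and 0.243 FPKM in APCmin/+ and 0.237, 0.188 and 0.102 FPKM in APCmin/+;ieCtnnb1KO tumors. These levels rest on 18 to 77 fragments a library, below the filter of a mean of 0.5 FPKM, and Egf entered no test across genes. Tgfa, which encodes transforming growth factor α, stood at 4.11, 5.02 and 4.05 FPKM in Wild type and at 4.51, 4.39 and 5.44 FPKM in ieCtnnb1KO crypts. In tumors it stood at 13.7, 15.8 and 19.1 FPKM in APCmin/+ and at 13.9, 16.2 and 13.4 FPKM in APCmin/+;ieCtnnb1KO. Its groups overlapped in both tissues.

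Areg and Ereg encode amphiregulin and epiregulin, EGFR ligands that are made in response to injury and growth signals. Areg was at 3.88, 5.33 and 3.41 FPKM in Wild type and 1.92, 3.73 and 5.04 FPKM in ieCtnnb1KO crypts. In tumors it was at 13.3, 7.78 and 22.5 FPKM in APCmin/+ and 19.7, 32.7 and 15.9 FPKM in APCmin/+;ieCtnnb1KO. The highest of the 12 values was in knockout tumor library 2, and the tumor groups overlapped. Ereg was at 0.689, 1.89 and 3.01 FPKM in Wild type crypts, a spread of more than 4-fold within the group, and at 1.07, 1.11 and 0.845 FPKM in ieCtnnb1KO crypts. In tumors Ereg was at 6.13, 7.90 and 28.5 FPKM in APCmin/+ and 15.1, 8.58 and 29.0 FPKM in APCmin/+;ieCtnnb1KO. The female library was the highest for Ereg in both genotypes. Sex has 1 female library per genotype here, and its part in the Ereg level was not tested.

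Btc encodes betacellulin, which binds EGFR and ERBB4, and Hbegf (chr18:36504929-36515805, minus strand) encodes heparin-binding EGF-like growth factor. Btc was at 1.94, 1.39 and 1.34 FPKM in Wild type and 1.06, 0.990 and 0.866 FPKM in ieCtnnb1KO crypts. Every ieCtnnb1KO value lay below every Wild type value. In tumors Btc was at 4.80, 5.19 and 5.68 FPKM in APCmin/+ and 6.42, 6.74 and 4.67 FPKM in APCmin/+;ieCtnnb1KO, and the groups overlapped. Hbegf was at 4.08, 6.34 and 9.27 FPKM in Wild type and 2.33, 6.54 and 8.97 FPKM in ieCtnnb1KO crypts. The spread within each of these groups was wider than the difference between their means. In tumors Hbegf was at 9.66, 6.92 and 11.8 FPKM in APCmin/+ and 9.64, 10.9 and 12.5 FPKM in APCmin/+;ieCtnnb1KO, again with overlap.

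Set in order of mean level, Wild type crypts held Erbb3 (42.2 FPKM), Erbb2 (24.3), Hbegf (6.57), Tgfa (4.39), Areg (4.21), Egfr (2.25), Ereg (1.86), Btc (1.56) and Egf (0.369). Neighbours in this order were apart beyond the range of their 3 libraries at Erbb3 over Erbb2, Erbb2 over Hbegf, Areg over Egfr and Btc over Egf, and overlapped elsewhere. In APCmin/+ tumors the order was Erbb3 (35.4 FPKM), Erbb2 (31.3), Tgfa (16.2), Areg (14.5), Ereg (14.2), Hbegf (9.47), Btc (5.22), Egfr (5.14) and Egf (0.265). Here Erbb2 over Tgfa, Hbegf over Btc and Egfr over Egf were apart, and the other neighbours overlapped. Ereg had rank 7 by mean in Wild type crypts and rank 5 in APCmin/+ tumors. In ieCtnnb1KO crypts the order of the means was that of Wild type crypts. In APCmin/+;ieCtnnb1KO tumors Areg (22.8 FPKM) and Ereg (17.6) had higher means than Tgfa (14.5), with overlapping ranges, and Egfr (6.34) and Btc (5.94) exchanged places, also with overlap.

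As a share of the summed FPKM of the 6 ligands in a library, Hbegf held 20.7% to 43.1%, Tgfa 18.8% to 40.2% and Areg 15.9% to 26.1% in the 6 crypt libraries. Ereg held 3.95% to 14.0%, Btc 4.05% to 13.0% and Egf 1.09% to 3.01%. In the 6 tumor libraries Areg held 17.7% to 43.4%, Ereg 11.4% to 38.4%, Tgfa 17.7% to 35.9%, Hbegf 13.5% to 20.2%, Btc 6.17% to 11.8% and Egf 0.135% to 0.760%. The summed ligand FPKM stood at 0.243, 0.304 and 0.278 of the summed receptor FPKM in Wild type crypts and at 0.162, 0.261 and 0.353 in ieCtnnb1KO crypts. In tumors this ratio was 0.653, 0.594 and 1.29 in APCmin/+ and 0.907, 1.01 and 1.14 in APCmin/+;ieCtnnb1KO. The receptor sum was between 60.6 and 77.5 FPKM in crypts and between 66.3 and 74.9 FPKM in tumors, whereas the ligand sum was between 11.2 and 21.5 FPKM in crypts and between 43.9 and 87.9 FPKM in tumors. The sums of receptor FPKM thus covered overlapping ranges in the separately normalized tables, and the ranges of the ligand sums did not meet. The sum over all genes differed too, at 401827 to 529632 FPKM in crypt and 293329 to 346851 FPKM in tumor libraries. The overlap of the receptor sums is therefore stated for the deposited scale only.

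Between genotypes, the ligand-to-receptor ratio overlapped in both tissues. The difference of its means, knockout minus control, was −0.0158 in crypts (exact two-sided permutation p = 0.8) and 0.173 in tumors (exact two-sided permutation p = 0.5). Without ieCtnnb1KO library 1 the crypt difference was 0.0325, with the opposite sign. The tumor difference was 0.0469 without APCmin/+ library 2 and 0.394 without APCmin/+ library 3, and 0.0368 when fragments not divided by length were summed. The Tgfa share of the ligands in tumors was 28.6%, 35.9% and 21.8% in APCmin/+ and 21.3%, 21.5% and 17.7% in APCmin/+;ieCtnnb1KO. Each knockout value was below each control value, with 21.8% and 21.5% almost touching, and of the 9 shares of ligands and receptors in tumors this was the only one without overlap on FPKM. The difference of the means was −8.57 percentage points (exact two-sided permutation p = 0.1, the smallest that 3 libraries against 3 can give). On fragments not divided by length the groups overlapped (difference −9.43 percentage points, exact permutation p = 0.3), and the difference on FPKM was −5.00 percentage points without APCmin/+ library 2. The Tgfa level itself overlapped between the genotypes, so the levels of the other ligands enter into this share. In crypts the Tgfa share differed in the other direction, with overlap, at 27.5%, 24.6% and 18.8% in Wild type and 40.2%, 25.7% and 25.4% in ieCtnnb1KO (difference 6.80 percentage points, exact two-sided permutation p = 0.4). Without ieCtnnb1KO library 1 that difference was 1.93 percentage points.

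**Figure D2:**
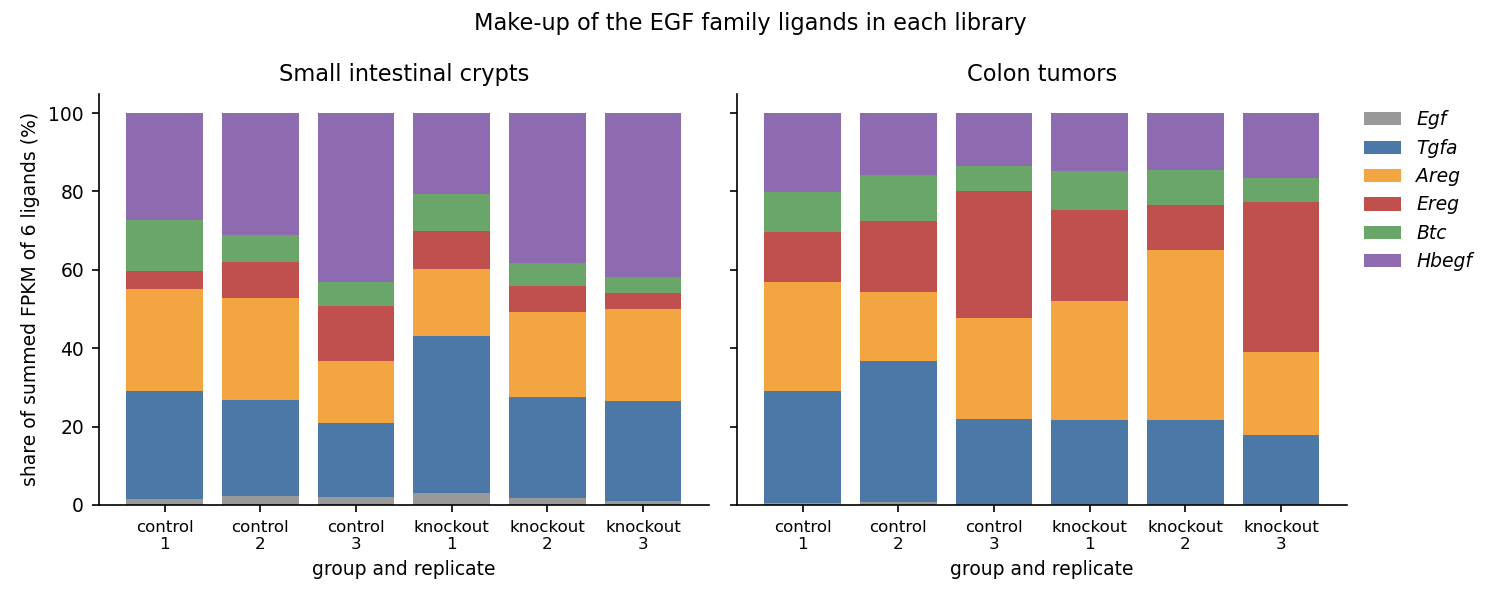
Share of each ligand in the summed FPKM of the 6 ligands (vertical axis, percent), with 1 bar per library. Hbegf, Tgfa and Areg fill most of each crypt bar. Ereg holds up to 38.4% in tumors, and the Tgfa share is 21.8% to 35.9% in APCmin/+ tumors and 17.7% to 21.5% in APCmin/+;ieCtnnb1KO tumors.

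In crypts, knockout and control were compared with limma on log2(FPKM + 0.5), a scale that understates changes of genes with low FPKM. Of the 9 genes, 8 passed the filter of a mean of 0.5 FPKM and were tested, and none had an adjusted p under 0.05. Over all 14176 tested genes the count was also 0 (0%). Voom, which was run on the recovered fragments, made 0 calls as well. At an unadjusted p under 0.05, limma found 829 genes (5.85%), and 1 of the 8 was among them, Btc. Groups did not overlap for 1693 of all genes (11.9%) and for 1 of the 8, again Btc. The log2 fold change of Btc was −0.47 (95% interval −0.91 to −0.04, SE 0.183, limma adjusted p = 0.840, lower in 3 of 3 knockout libraries), from a mean of 1.56 ± 0.335 to 0.972 ± 0.0981 FPKM (SD, n = 3 each). The exact two-sided permutation p was 0.1. Behind these values stood 136, 96 and 95 fragments in Wild type and 78, 75 and 55 fragments in ieCtnnb1KO. Rescaling to the same total FPKM made the Btc groups overlap. Btc no longer had an unadjusted p under 0.05 after this rescaling, after quantile normalization, without a filter, or without Wild type library 1 or any 1 of the ieCtnnb1KO libraries. Its estimate stayed negative in each fit, at −0.37 after this rescaling and −0.40 after quantile normalization. As single libraries were left out, it ranged from −0.55 to −0.34.

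The other 7 tested genes had log2 fold changes in crypts between −0.52 for Ereg and 0.11 for Tgfa. The Tgfa estimate ranged from 0.023 to 0.20 as single libraries were left out, and it was 0.24 after rescaling to the same total and 0.054 after rescaling without the 50 highest genes. For Ereg the 95% interval ran from −1.41 to 0.38 (limma adjusted p = 0.896). Without Wild type library 1, the lowest of its group, the Ereg estimate was −0.94 (limma adjusted p = 0.427), and without library 3, the highest, it was −0.16 (limma adjusted p = 0.935). The Areg estimate was −0.27 (limma adjusted p = 0.928), and it ranged from −0.54 to 0.06 as single libraries were left out, the extremes being without ieCtnnb1KO library 3 and without ieCtnnb1KO library 1. The latter was also the lowest for Hbegf, whose estimate of −0.23 (limma adjusted p = 0.965) became 0.28 without it, 0.03 without Wild type library 3 and −0.59 without ieCtnnb1KO library 3. Among the receptors, the log2 fold change was −0.07 for Egfr (95% interval −0.41 to 0.27), 0.01 for Erbb2 (−0.29 to 0.30) and −0.12 for Erbb3 (−0.47 to 0.23). Leaving out single libraries gave −0.14 to −0.020 for Egfr, −0.06 to 0.10 for Erbb2 and −0.24 to 0.0039 for Erbb3, and rescaling to the same total gave 0.05, 0.15 and 0.025. In all, 6 of the 8 estimates were negative, with a median of −0.18 beside 0.014 for all tested genes, but only 4 of the 8 were negative when libraries were rescaled to the same total FPKM. That rescaling moved the median of all genes by 0.13, and relative to this median 7 of the 8 lay below it on the deposited scale and 6 of the 8 on the rescaled one.

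Marker sums of Paneth cells and enterocytes varied between crypt libraries, and the groups overlapped. The 7 Paneth cell markers, of which Defa24 was the most abundant, summed to 19080, 27945 and 52445 FPKM in Wild type and to 20986, 18153 and 20877 FPKM in ieCtnnb1KO. All 7 had negative estimates (6 of 7 under rescaling to the same total or quantile normalization), 2 of them with an unadjusted p under 0.05. Wild type library 3, with the highest Paneth sum, was also the highest crypt library for Ereg, Hbegf and Erbb3. The 8 enterocyte markers, with Fabp2 the most abundant, all had positive estimates, none with an unadjusted p under 0.05, and summed to 3924, 6085 and 10579 FPKM in Wild type and 8309, 6133 and 9517 FPKM in ieCtnnb1KO. No marker of these lists was under 0.5 FPKM on average. The part of these cell types in the values of the ligands and receptors was not tested.

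In tumors, none of the 8 tested genes had an adjusted p under 0.05, nor had any of all 16743 tested genes (0%), with limma or with voom on fragments. At an unadjusted p under 0.05, limma found 2421 genes (14.5%) and 0 of the 8. Groups did not overlap for 3693 of all genes (22.1%) and for 0 of the 8. Estimates ranged from −0.15 for Tgfa (95% interval −0.48 to 0.19, limma adjusted p = 0.640) to 0.69 for Areg. The Tgfa estimate ranged from −0.26 to −0.023 as single libraries were left out, and it was 0.029 among the 4 male libraries and −0.25 after rescaling to the same total. The mean of Areg was 14.5 ± 7.44 FPKM in APCmin/+ and 22.8 ± 8.79 FPKM in APCmin/+;ieCtnnb1KO (SD, n = 3 each), with a 95% interval of the log2 fold change from −0.29 to 1.67 (SE 0.409, limma adjusted p = 0.460). As single libraries were left out it ranged from 0.32 (without APCmin/+ library 2) to 1.06 (without APCmin/+ library 3). Among the 4 male libraries it was 1.27 (limma adjusted p = 0.681).

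For Ereg the tumor estimate was 0.46 (95% interval −1.07 to 1.99, limma adjusted p = 0.755), and it moved between 0.02 and 1.11 as single libraries were left out, the extremes being without APCmin/+;ieCtnnb1KO library 3 and without APCmin/+ library 3. The interval spans about 3 log2 units, so the data cannot tell a several-fold difference from none. Egfr had an estimate of 0.28 (95% interval −0.11 to 0.67, limma adjusted p = 0.455), Hbegf of 0.23 (−0.24 to 0.71) and Btc of 0.16 (−0.21 to 0.53). As single libraries were left out, the estimate ranged from 0.18 to 0.41 for Egfr, from 0.034 to 0.40 for Hbegf and from 0.066 to 0.31 for Btc, with limma adjusted p of at least 0.290. Erbb2 and Erbb3 each had an estimate of −0.05, with 95% intervals from −0.23 to 0.14 and from −0.36 to 0.26. As single libraries were left out, Erbb2 ranged from −0.074 to −0.0045 and Erbb3 from −0.15 to 0.062. After rescaling to the same total the estimates were 0.18 for Egfr, 0.13 for Hbegf, 0.058 for Btc, −0.15 for Erbb2 and −0.16 for Erbb3. Of the 8 estimates 5 were positive under every scaling tried. Their median was 0.19 on the deposited scale, beside 0.0075 for all tested genes, and 0.092 after rescaling to the same total, beside −0.090 for all tested genes.

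**Figure D3:**
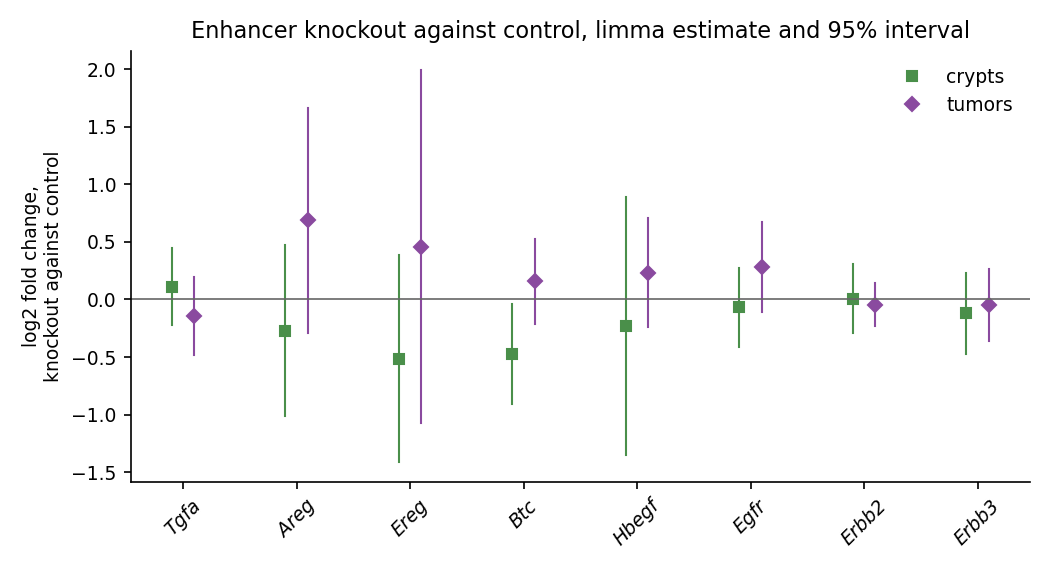
Log2 fold change of knockout against control (vertical axis) for the 8 tested genes in crypts (squares) and tumors (diamonds). Vertical lines are 95% intervals from limma with 3 libraries per group. The intervals include 0 except for Btc in crypts (−0.91 to −0.04), and those of Areg and Ereg in tumors are wide.

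Marker sums of other cells also differed between the tumor genotypes. All 6 goblet cell markers had a positive estimate with an unadjusted p under 0.05, and summed to 1252, 1240 and 1277 FPKM in APCmin/+ and to 2394, 2896 and 2445 FPKM in APCmin/+;ieCtnnb1KO, with Spink4 the most abundant. All 8 epithelial markers had positive estimates (6 of 8 under quantile normalization), 3 of them with an unadjusted p under 0.05, and their sums did not overlap (4425, 4446 and 3885 against 5220, 5070 and 5403 FPKM). The leukocyte markers summed to 215, 438 and 311 FPKM in APCmin/+ and to 214, 123 and 199.9 FPKM in APCmin/+;ieCtnnb1KO. Their most abundant gene was S100a9 and Cd3e was under 0.5 FPKM, and 2 of the 7 tested, S100a8 and S100a9, had an unadjusted p under 0.05, both lower. On the deposited scale 4 of these 7 had positive estimates, with a median of 0.023. After rescaling to the same total 2 of the 7 were positive, with a median of −0.083 beside −0.090 for all tested genes. After quantile normalization 3 of the 7 were positive. The lower sums thus do not extend to all leukocyte markers. The fibroblast markers, with Vim the most abundant, summed to 508, 355 and 444 FPKM in APCmin/+ and 507, 607 and 549 FPKM in APCmin/+;ieCtnnb1KO. Of the 7 fibroblast markers 4 had a positive estimate with an unadjusted p under 0.05. APCmin/+ library 2 had the lowest fibroblast sum, the highest leukocyte sum and the lowest Areg and Hbegf, and APCmin/+;ieCtnnb1KO library 2 had the highest fibroblast sum, the lowest leukocyte sum and the highest Areg and Egfr. The part of these cell types in the ligand and receptor values was not tested.

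The remaining marker lists gave the following background. Stem cell markers summed to 584 to 1025 FPKM in crypts, with Olfm4 the most abundant, and to 143 to 194 FPKM in tumors, where Olfm4 was under 0.5 FPKM and Axin2 led. In tumors the stem cell sums were lower in every knockout library than in every control library (168, 194 and 186 against 167, 143 and 157 FPKM). Leukocyte markers in crypts summed to 19.0 to 23.8 FPKM and fibroblast markers to 7.26 to 14.9 FPKM, with overlap. Goblet markers in crypts summed to 4343 to 7751 FPKM, with overlap and with negative estimates for 5 of 6. Paneth markers in tumors summed to 1642 to 4402 FPKM, with overlap and with positive estimates for 7 of 7, none with an unadjusted p under 0.05. After rescaling to the same total 6 of 7 were positive, and after quantile normalization 5 of 7. Colonocyte markers had higher sums in every knockout library than in every control library, in crypts (58.8 to 84.9 against 109 to 141 FPKM) and in tumors (77.1 to 88.8 against 107 to 235 FPKM). In crypts Car4 led (mean 70.8 FPKM), Car1 and Aqp8 were under 0.5 FPKM, and 2 of 3 tested had an unadjusted p under 0.05. In tumors Car1 led (mean 95.5 FPKM), and 1 of 5 had an unadjusted p under 0.05. Enteroendocrine markers summed to 103 to 196 FPKM in crypts, where 4 of 5 estimates were negative, 2 with an unadjusted p under 0.05 and without overlap. In tumors they summed to 10.4 to 18.1 FPKM, and 4 of 4 estimates were positive. Tuft cell markers summed to 13.9 to 33.8 FPKM in crypts and 34.1 to 64.1 FPKM in tumors. Avil was the most abundant in both (means of 8.54 and 50.4 FPKM), and Trpm5 and Pou2f3 were under 0.5 FPKM in tumors. Smooth muscle sums (102 to 125 against 128 to 142 FPKM) and endothelial sums (47.9 to 63.1 against 67.6 to 73.8 FPKM) in tumors were higher in every knockout library. Of the 5 smooth muscle markers 3 had positive and 2 negative estimates, and of the 5 endothelial markers 4 had positive and 1 a negative estimate. Acta2 and Plvap were the most abundant. Markers of cycling cells summed to 111 to 156 FPKM in crypts and 141 to 181 FPKM in tumors, with overlap between the genotypes in both.

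The knockout effects in tumors and crypts were compared directly with an interaction contrast in limma over all 12 libraries. None of 13370 genes tested in both tables had an adjusted p under 0.05 (0%), and 1133 (8.47%) had an unadjusted p under 0.05. Of the 8 ErbB genes, 0 passed the adjusted threshold and 1, Btc, the unadjusted. Its effect in tumors minus that in crypts was 0.63 on the log2 scale (SE 0.226, limma adjusted p = 0.555). The differences for Areg (0.96, SE 0.563) and Ereg (0.97, SE 0.811) were larger and less certain, with limma adjusted p of 0.676 and 0.776. The difference of the knockout effects was also positive for Egfr (0.35), Hbegf (0.46) and Erbb3 (0.07) and negative for Tgfa (−0.26) and Erbb2 (−0.05), with limma adjusted p between 0.692 and 0.937. These differences are on the deposited scale, and the contrast was not refitted after rescaling. After rescaling to the same total, the Erbb3 log2 fold change was −0.16 in tumors and 0.025 in crypts.

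The other genes of the family are Epgn, Erbb4 and the neuregulin genes Nrg1, Nrg2, Nrg3 and Nrg4. Neuregulins bind ERBB4, and some of them also bind ERBB3. Nrg1 was a tumor transcript in these libraries. It stood at 3.06, 3.29 and 6.28 FPKM in APCmin/+ and 3.59, 6.30 and 6.13 FPKM in APCmin/+;ieCtnnb1KO tumors, with overlap (log2 fold change 0.34, limma adjusted p = 0.618). This estimate ranged from 0.17 to 0.63 as single libraries were left out. In crypts 2 fragments of Nrg1 were counted in 1 Wild type library and 0 in the other 5. Nrg4 was found in both tissues at 0.532 to 1.25 FPKM in crypts and 0.359 to 0.844 FPKM in tumors, with overlap between genotypes. Its log2 fold change was 0.17 in crypts (limma adjusted p = 0.945), turning to −0.04 without ieCtnnb1KO library 3, and −0.25 in tumors (limma adjusted p = 0.616). The tumor estimate of Nrg4 ranged from −0.39 to −0.14 as single libraries were left out and was −0.46 with voom. Epgn, the neighbour of Ereg, reached 3 fragments at most in a crypt library and 5 in a tumor library. Nrg2 reached 7 and 9 fragments, Erbb4 0 and 22, and Nrg3 had 0 fragments in all 12 libraries.

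Further genes of the pathway were described with lists of the family, ligand release, the signaling branches, inhibitors and MAPK target genes, 115 genes in all. In crypts 102 were tested. None passed the adjusted threshold, 4 (3.92%) had an unadjusted p under 0.05 and 12 (11.8%) had groups that did not overlap, beside 5.85% and 11.9% of all genes. In tumors 110 were tested. None passed the adjusted threshold, 12 (10.9%) had an unadjusted p under 0.05 and 21 (19.1%) had groups that did not overlap, beside 14.5% and 22.1% of all genes. The median log2 fold change was −0.0054 in crypts and −0.0018 in tumors.

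Ligand release is carried out by ADAM proteases, rhomboid proteins and the carriers that bring them and the ligands to the surface. In crypts 1 of 14 tested genes had an unadjusted p under 0.05 and 2 had groups that did not overlap, Frmd8 and Cnih1. Frmd8, whose product stabilizes the iRhom-ADAM17 sheddase, was at 12.6, 15.4 and 16.6 FPKM in Wild type and 19.6, 18.1 and 18.4 FPKM in ieCtnnb1KO (log2 fold change 0.33, limma adjusted p = 0.845). Cnih1 had a log2 fold change of 0.42 (limma adjusted p = 0.849). The Frmd8 estimate was 0.22 without Wild type library 1 and the Cnih1 estimate 0.23 without Wild type library 3. In tumors 3 of 16 had an unadjusted p under 0.05, all with positive estimates and groups that did not overlap. Rhbdl2, a rhomboid protease, was at 7.63, 7.15 and 5.66 FPKM in APCmin/+ and 9.13, 11.7 and 9.23 FPKM in APCmin/+;ieCtnnb1KO (log2 fold change 0.53, SE 0.150, limma adjusted p = 0.281). Adam15 and Cnih4 had log2 fold changes of 0.32 and 0.29 (limma adjusted p = 0.324 and 0.337), and of 0.21 and 0.18 without APCmin/+ library 3.

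Of the 21 adaptor and RAS-MAPK genes, 0 had an unadjusted p under 0.05 in crypts and 4 in tumors, 2 in each direction. Groups did not overlap for 2 of the 21 in crypts and for 9 of the 21 in tumors (4 higher and 5 lower), beside 22.1% of all genes in tumors. In tumors Map2k1, which encodes the MAPK kinase MEK1, was at 37.6, 35.8 and 33.2 FPKM in APCmin/+ and 44.4, 44.4 and 48.9 FPKM in APCmin/+;ieCtnnb1KO (log2 fold change 0.37, SE 0.0865, limma adjusted p = 0.269; 0.24 after quantile normalization). The adaptor gene Gab1 was at 12.5, 13.2 and 15.4 FPKM against 10.7, 10.4 and 10.8 FPKM (log2 fold change −0.34, limma adjusted p = 0.285). Genes of this list therefore had opposite signs. In crypts the groups of Mapk3 (0.22) and Braf (−0.17) did not overlap, with limma adjusted p of 0.891 and 0.905. Mapk3 was at 0.14 without Wild type library 1 and at 0.11 after quantile normalization. After rescaling to the same total Mapk3 was at 0.37 and Braf at −0.06.

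Of the 19 PI3K-AKT genes, 1 had an unadjusted p under 0.05 in crypts and 2 in tumors. In crypts Pik3cd, a catalytic subunit best known from leukocytes, was at 4.81, 4.37 and 6.56 FPKM in Wild type and 3.90, 3.59 and 3.48 FPKM in ieCtnnb1KO (log2 fold change −0.45, limma adjusted p = 0.811), and Tsc2, an inhibitor of mTORC1, had a log2 fold change of 0.14. Without Wild type library 3, the estimates were −0.29 for Pik3cd and 0.088 for Tsc2, and Tsc2 was at 0.28 after rescaling to the same total. In tumors Rictor, a subunit of mTORC2, had a log2 fold change of −0.37 and Foxo3, a transcription factor that AKT restrains, one of 0.22 (limma adjusted p = 0.305 and 0.388). The Foxo3 estimate was 0.13 without APCmin/+;ieCtnnb1KO library 2 and 0.11 after rescaling to the same total. Of the 15 genes of the SRC, PLC-gamma and STAT branch, 0 had an unadjusted p under 0.05 in crypts and 1 in tumors, and in each tissue the groups of 1 gene did not overlap. These were Stat3 in crypts (log2 fold change −0.23, limma adjusted p = 0.860, and −0.083 after rescaling to the same total) and Stat5a in tumors (−0.38, limma adjusted p = 0.324).

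Among the inhibitors, 2 of 21 tested genes had an unadjusted p under 0.05 in crypts, both with negative estimates, and 2 of 23 in tumors, 1 in each direction. In crypts the groups of 5 of the 21 did not overlap (1 higher and 4 lower), beside 11.9% of all genes. Socs3, a feedback inhibitor of cytokine and receptor signaling, was at 18.7, 20.5 and 37.2 FPKM in Wild type and 11.9, 14.7 and 14.7 FPKM in ieCtnnb1KO crypts (log2 fold change −0.80, SE 0.260, limma adjusted p = 0.799), and the estimate was −0.50 without Wild type library 3. The phosphatase gene Ptprj had a log2 fold change of −0.39 (limma adjusted p = 0.845). Lrig1, which promotes the degradation of ErbB receptors and marks crypt stem cells, was at 26.3, 20.5 and 21.5 FPKM in Wild type and 20.5, 17.5 and 16.5 FPKM in ieCtnnb1KO (log2 fold change −0.32, limma adjusted p = 0.853). After rescaling to the same total the estimates were −0.26 for Ptprj and −0.17 for Lrig1. In tumors the groups of Spred2 alone did not overlap (log2 fold change −0.23, limma adjusted p = 0.325; −0.14 among the 4 male libraries).

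Of the genes known to rise after MAPK activation, 7 are also in the list of inhibitors, since feedback inhibitors are among the targets. In crypts 13 of 17 tested genes had negative estimates, with a median of −0.17 beside 0.014 for all genes, and 0 had an unadjusted p under 0.05. After rescaling to the same total, which moves all genes, 10 of 17 were negative, and 13 of 17 lay below the median of all genes on both scales. In tumors 15 of 21 had positive estimates on the deposited scale, and 14 of 21 lay above the median of all genes. After rescaling to the same total or without the 50 highest genes 10 of 21 were positive and 13 of 21 above that median, and after quantile normalization 10 of 21 and 11 of 21. Of these 21, 2 had an unadjusted p under 0.05, 1 in each direction. Besides Spred2, the groups of Egr3, an early response gene, did not overlap in tumors, at 0.911, 0.702 and 1.20 FPKM in APCmin/+ and 1.40, 1.58 and 1.25 FPKM in APCmin/+;ieCtnnb1KO (log2 fold change 0.42, limma adjusted p = 0.370).

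**Figure D4:**
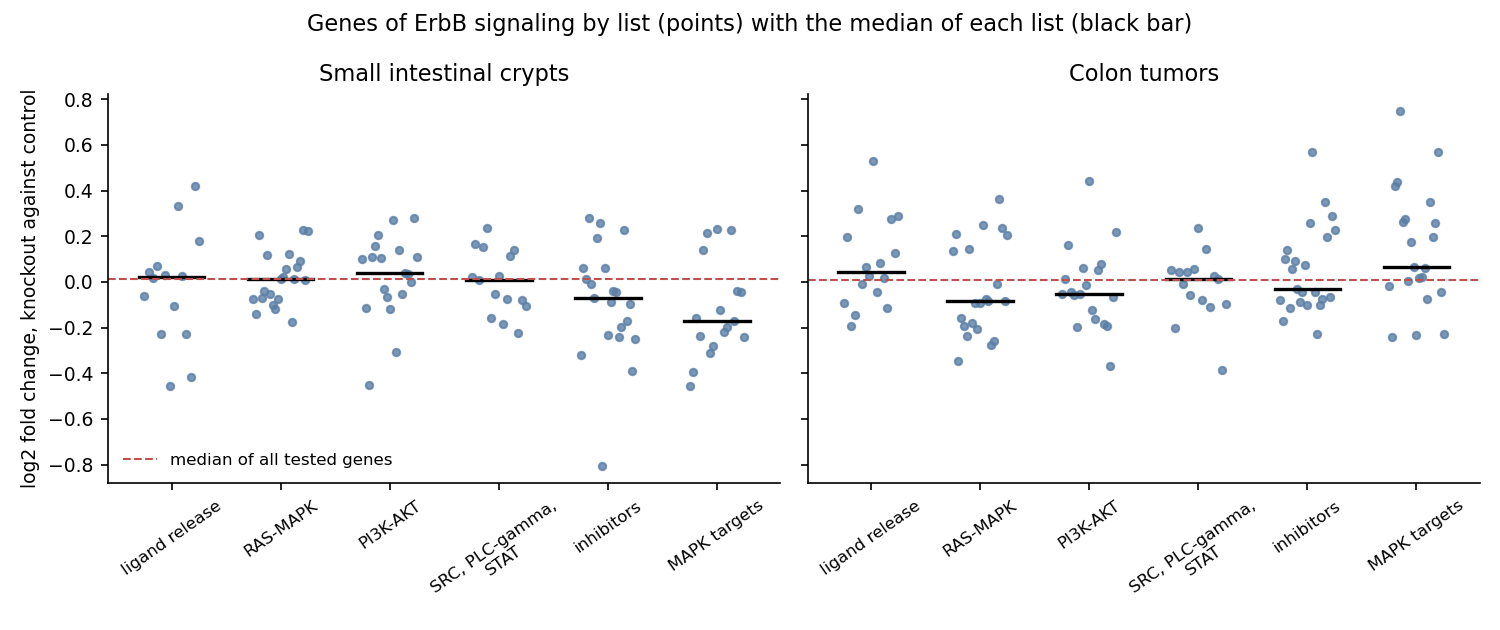
Log2 fold change of knockout against control (vertical axis) for the tested genes of 6 lists of ErbB signaling in crypts and tumors. Each point is a gene, black bars are list medians, and the dashed line is the median of all tested genes. In crypts the median of the MAPK target genes is −0.17, and the medians of the other lists in both tissues lie between −0.084 and 0.067.

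For each receptor, the genes with the most similar pattern over libraries were taken from 10238 protein-coding genes with a mean of at least 1 FPKM in both tables, by the lower of 2 Pearson correlations of log2(FPKM + 0.5), over 6 crypt and 6 tumor libraries. Most like Egfr were Ms4a12 (r = 0.909 in crypts and 0.928 in tumors), Fam69a (0.856 and 0.944) and Sema5a (0.859 and 0.854). Most like Erbb2 were Tcf3 (0.866 and 0.861), Lipg (0.860 and 0.900) and H3f3b (0.865 and 0.850). Among those most like Erbb3 were Jade1 (0.886 and 0.941) and Nedd9 (0.883 and 0.862). These were chosen from 10238 values over 6 libraries of 2 genotypes, and they serve as a description.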

How the data were processed

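Bulk RNA-seq of 12 libraries was used, grouped by genotype and tissue from the sample labels. By the paper's methods, Hisat2 aligned the read pairs and featureCounts assigned them to genes. The submitters' notes also name cutadapt, mm10 and Cufflinks 2.2.1, with no roles. The authors deposited FPKM per gene and library, replicates not pooled, in 1 table per tissue, with the gene length (other values) in bases. How FPKM were computed and whether counting used strand is not given in the sources used here. Positions are those of GRCm38: among 54495 genes shared with GENCODE M21, start and end match for 53548, including 8 of the 9 genes.

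The authors tested counts with DESeq2. As the deposited values are FPKM, limma 3.58.1 (R 4.3.3, variance trend) was used on log2(FPKM + 0.5), for genes with a mean of at least 0.5 FPKM over the 6 libraries of a table, with Benjamini-Hochberg adjustment over all tested genes and a threshold of 0.05. The interaction was fitted over 12 libraries. The fit was tested on simulated data. Single values were compared by exact two-sided permutation (scipy 1.17.1), which cannot go below p = 0.1. Intervals are 95%. Fragments were recovered from FPKM × length. Promoter windows are from RefSeq.

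The members and lists were chosen with earlier results of these data known. All 9 genes and the rest of the family are named; from each other list up to 3 genes per tissue are named, those with the smallest p whose groups do not overlap; Ctnnb1 is named as target of the enhancer, and up to 3 genes most like each receptor. Some results under these rules are not reported here. Alternatives were other pseudocounts (0.1 and 1), filters, scalings and variance models, protein-coding genes only, voom on fragments, the replicate number as a block, sex as a term, male libraries only, and leaving out each library.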

Additional observations from a re-analysis of the deposited data

How the results depend on the processing

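None of the 8 tested ErbB genes had an adjusted p under 0.05 with limma or voom in any fit. The lowest adjusted p over these fits was 0.427 in crypts, 0.290 in tumors and 0.535 for the interaction. Over the alternatives, 140 of 152 estimates in crypts, 166 of 168 in tumors and 32 of 32 interaction estimates kept their sign. Other filters, variance models, protein-coding genes only, the replicate block, sex as a term and median-of-ratios scaling leave an estimate unchanged. These fits could not alter a sign. The interaction was refitted with other pseudocounts, without a variance trend and with the replicate block only. Its sign under other scalings or without single libraries was not tested. In crypts, rescaling to the same total gave 0.0487 for Egfr and 0.0249 for Erbb3, and Erbb2 was −0.0598 after quantile normalization and −0.0527 after rescaling without the 50 highest genes. Leaving out single crypt libraries gave −0.54 to 0.0616 for Areg, −0.59 to 0.28 for Hbegf, −0.0603 to 0.10 for Erbb2, −0.24 to 0.0039 for Erbb3, −0.0387 to 0.29 for Nrg4 and −0.0628 to 0.0325 for the difference in ligand-to-receptor ratio. In tumors, Tgfa was 0.0287 among male libraries, and Erbb3 ranged from −0.15 to 0.0624 as libraries were left out. The count of ErbB genes at an unadjusted p under 0.05 in crypts was 0 without a filter, after quantile normalization, after rescaling to the same total and with the replicate block, and 0 to 1 as libraries were left out (Ereg in place of Btc without Wild type library 1). The count of non-overlapping genes was 1 to 3 in crypts as libraries were left out. After rescaling to the same total it was 1, with Tgfa in place of Btc. In tumors the unadjusted count was 2 among male libraries (Areg and Btc) and 0 to 1 as libraries were left out. The non-overlapping count in tumors was 1 after rescaling to the same total or without the 50 highest genes (Erbb2 in both), and 0 to 2 as libraries were left out. With a library left out, groups separate more readily by chance. Shares over all genes in these settings are not given, so these counts of ErbB genes are descriptive only. The count of pathway genes at an unadjusted p under 0.05 was 1 to 5 in crypts and 5 to 15 in tumors over the alternatives. Over all genes, 0 to 3 passed the adjusted threshold in crypts as libraries were left out (Gkn1, Gkn2 and Pgc without Wild type library 3). In tumors 1 passed without a variance trend (Mir3473e). For the interaction 1 passed with a pseudocount of 0.1 (Trbj1-6) and 1 with the replicate block (Trbj1-3). The choice of these names followed a look at the results, and the cause of these changes was not tested. Libraries with the same number did not deviate together (r between −0.122 and 0.037 in crypts and between −0.090 and 0.054 in tumors) and were not treated as pairs, and the replicate block made 0 adjusted calls in each tissue. Median-of-ratios scaling left the values as they were, so the deposited values were already on that scale within each tissue.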
